A study of Mus musculus with 10 samples.

Results

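The 38 genes described here serve protein folding in the endoplasmic reticulum (ER). They were chosen by name, from a list of ER chaperones, disulfide isomerases, degradation factors, translocon subunits and sensors of the unfolded protein response. The choice was made with earlier results of these data known. All 38 were among the 26312 genes of the normalized count table, and all 38 had a mean of at least 10 normalized counts, the limit for testing that 15180 genes passed. RNA came from mammary epithelial cells of C57BL/6J mice at an age of 12 wk, which were sorted as EpCAM-high, CD49f-low, Sca-1 positive and CD49b negative, a gate for hormone-sensing luminal cells. Mice labelled RSK2(+/+) are called WT here and mice labelled RSK2(-/-) are called KO. RSK2 is a kinase downstream of ERK, encoded by Rps6ka3. Each genotype was taken at estrus (3 WT and 3 KO libraries) and at diestrus (2 WT and 2 KO libraries). The labels name no other allele and no agent, do not say in which cells or how RSK2 was removed, and they put the word WT in the titles of KO samples as well. They give 50000 sorted cells per sample and do not say whether a library was 1 mouse or a pool, so p-values measure the spread between libraries.

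Secreted and membrane proteins enter the ER through the Sec61 translocon and are folded there by Hsp70-type and lectin chaperones, while disulfide isomerases form their cysteine bonds. Proteins that fail to fold are taken back to the cytosol for degradation, a route called ER-associated degradation. When unfolded proteins accumulate, the sensors IRE1, ATF6 and PERK raise transcription of these same chaperones and degradation factors, in part through ER stress elements in their promoters.

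The promoters that carry such an element are shown first, because this short sequence links the sensors to the chaperones. It reads CCAAT, then 9 bases of any kind, then CCACG, and was searched on both strands from 250 bases before to 50 bases after each start site of the RefSeq promoters (GRCm38.p6). A promoter was given for 31 of the 38 members, and 9 of these 31 held the element, against 37 of 27025 genes in all (0.137%). Sequences are written 5′ to 3′ on the strand of the gene, with the element in capitals and 10 bases on each side. Where the element lies on the opposite strand, it reads CGTGG first and ATTGG last. Hspa5 and Syvn1 had it nearest to the start, at 65 and 44 bases before it.
Hspa5 (chr2:34772015-34772053): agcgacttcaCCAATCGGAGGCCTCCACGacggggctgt
Dnajc3 (chr14:118937817-118937855): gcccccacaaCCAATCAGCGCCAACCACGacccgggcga
Creld2 (chr15:88819510-88819548): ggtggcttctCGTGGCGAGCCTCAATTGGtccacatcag
Canx (chr11:50325790-50325828): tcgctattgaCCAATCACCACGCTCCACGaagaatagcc
Calr (chr8:84847065-84847103): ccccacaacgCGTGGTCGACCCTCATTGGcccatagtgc
Pdia6 (chr12:17266481-17266519): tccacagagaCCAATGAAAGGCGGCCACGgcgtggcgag
Syvn1 (chr19:6046522-6046560): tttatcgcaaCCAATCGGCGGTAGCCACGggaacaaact
Derl3 (chr10:75893232-75893270): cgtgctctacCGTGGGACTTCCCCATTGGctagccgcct
Hsp90b1 alone had 2 matches, one on each strand, and the stretch that holds both is shown.
Hsp90b1 (chr10:86705523-86705666): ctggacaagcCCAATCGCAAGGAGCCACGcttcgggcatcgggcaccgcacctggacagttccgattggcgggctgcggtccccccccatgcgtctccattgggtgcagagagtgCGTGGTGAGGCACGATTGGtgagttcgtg

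A related element, ATTGG, then 1 base of any kind, then CCACG, was found in Dnajb11 and in Herpud1, against 0.0444% of all genes. In Dnajb11 it lay after the start site, and in Herpud1 52 bases before it. The match in Herpud1, which is a membrane protein of the degradation complex, is given with 10 bases on each side. The core of the unfolded protein response element, TGACGTG, was found in Hspa5 alone among the members and in 2.22% of all genes. No printed match overlapped a match to another of these motifs.
Herpud1 (chr8:94386367-94386397): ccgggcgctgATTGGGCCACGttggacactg
Hspa5 (chr2:34771923-34771949): ggcgtagcaaTGACGTGagttgcggag

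Normalized counts summed to between 14.1 and 15.3 M per library. The target transcript Rps6ka3 was not lower in KO, with 128 to 137 normalized counts in WT estrus and 156 to 164 in KO estrus (limma adjusted p = 0.35), so it gave no check of the genotype labels. All 10 markers of hormone-sensing luminal cells were present, led by Krt8, Krt18 and Krt19, and their sum was 403379 to 523081 in WT estrus, 432597 to 474369 in WT diestrus, 415894 to 438164 in KO estrus and 368715 to 384566 in KO diestrus. One of the 10, Prom1, was called lower at estrus in KO (-1.66, limma adjusted p = 0.036), with 2191, 3414 and 9671 normalized counts in KO estrus and 12984 and 13432 in KO diestrus. KO estrus 3 also stood apart for Areg and Cited1, which were not called and which the keratin-led sum does not show. Areg had 25165, 22050 and 10637 in KO estrus and 11312 and 11845 in KO diestrus. Cited1 had 4043, 4191 and 12224 against 4151 and 4511. Esr1, at 1468, 2323 and 1472 in KO estrus, did not show that split. Of 9 luminal progenitor and alveolar markers 8 were in the table and 1, Cd14, was called, rising by 0.63 in the same comparison (adjusted p = 0.044), and their sum was 3218 to 4196 in WT estrus, 2209 to 4353 in WT diestrus, 3084 to 4839 in KO estrus and 3492 to 3512 in KO diestrus. The 6 basal markers summed to 386 to 1171 in WT estrus, 405 to 720 in WT diestrus, 410 to 966 in KO estrus and 324 to 641 in KO diestrus, with Krt5 at 502 in KO estrus 1 and at 32 to 149 in the other libraries. No tested basal, fibroblast, endothelial, macrophage or plasma and B cell marker was called between the stages in KO or between the genotypes at estrus, and no T cell marker reached the limit for testing. Of 5 fibroblast markers, Col1a1, Col1a2 and Pdgfra had means under 10. The sum of the 5 was 654 to 1610 in WT estrus, 580 to 647 in WT diestrus, 107 to 3101 in KO estrus and 94 to 114 in KO diestrus, nearly all of it Dcn. Of 7 plasma and B cell markers, 6 were in the table and 4 of those had means under 10, and the sum, nearly all Sdc1, was 2226 to 2803 in WT estrus, 2692 to 3247 in WT diestrus, 2834 to 3758 in KO estrus and 3249 to 3639 in KO diestrus. Jchain and Ighm stood at 23 and 101 in KO diestrus 1 and at 0 and 1 in KO diestrus 2. Per doubling of transcript length, log2 values changed by -0.10, -0.02 and -0.06 in the KO estrus libraries, by 0.06 and 0.04 in KO diestrus, by -0.02, 0.03 and 0.01 in WT estrus and by 0.03 in each WT diestrus library, so KO estrus 2 did not stand apart from WT estrus 1. The part of these differences in the results below was not tested, except for transcript length. In bulk RNA, fewer cells of a type and less RNA per cell cannot be told apart.

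The members spanned a wide range of levels. Per kilobase of the longest annotated transcript, Hspa5, which encodes the main ER Hsp70 (BiP), was highest at a mean of 20777 normalized counts per kb over the 10 libraries. P4hb, the founding disulfide isomerase, followed at 4807 per kb, and Xbp1, the transcription factor made active by IRE1 splicing, at 4381 per kb. At the other end stood Derl3 at 8.86 per kb, Pdia5 at 44.7 and Edem3 at 72.2. The highest library exceeded the lowest by more than 2 times in 23 of the 38 members, with a median ratio of 2.27. KO estrus had the lowest group mean for 29 members, and the highest group mean fell on KO diestrus for 21 and on WT diestrus for 11.

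**Figure D1:**
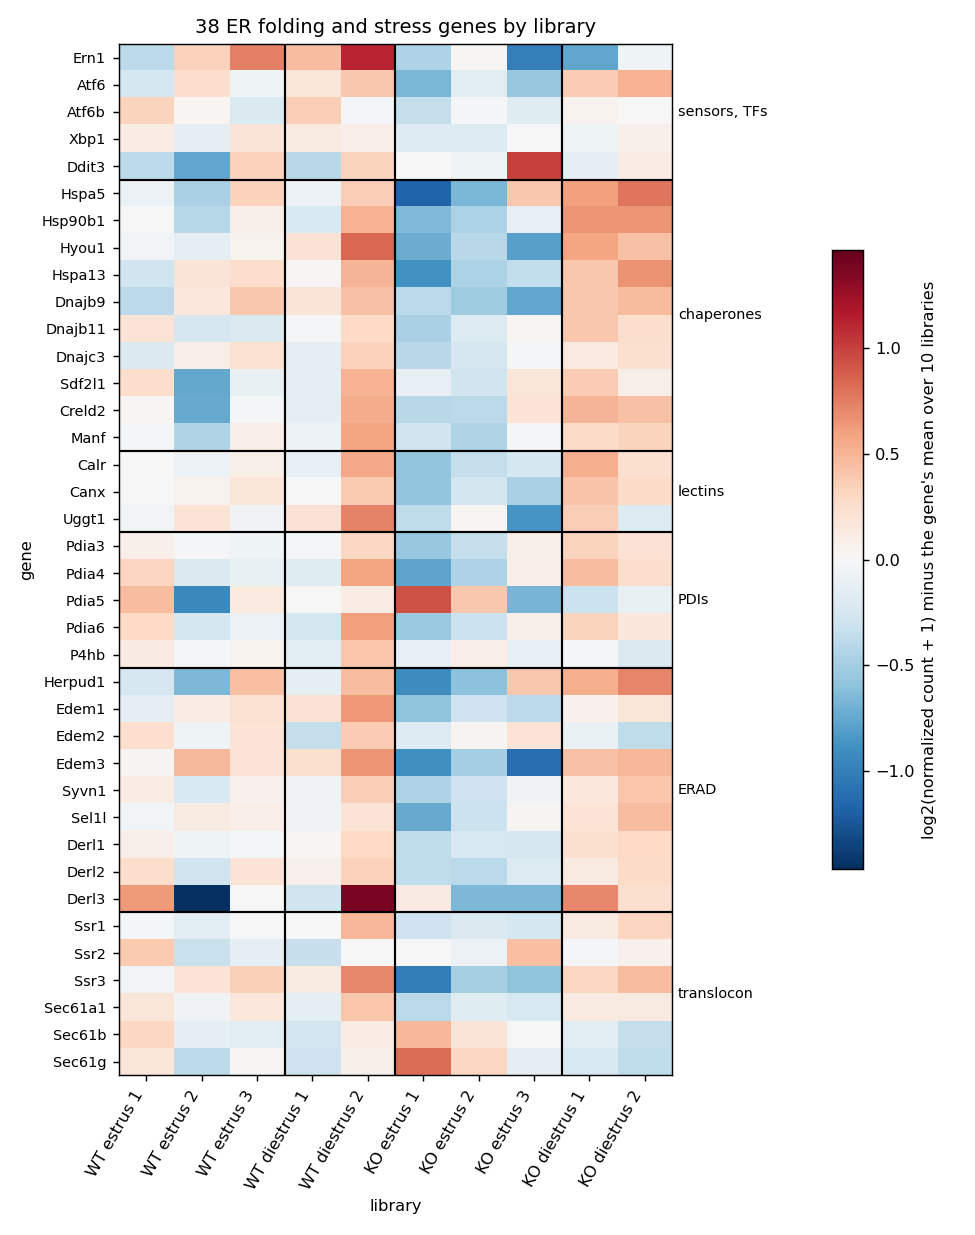
Each row is 1 of the 38 genes, grouped by role, and each column 1 of the 10 libraries, with black lines between groups. Colour gives log2(normalized count + 1) minus the mean of that gene over all libraries. Blue cells gather in the 3 KO estrus libraries and red cells in WT diestrus 2 and both KO diestrus libraries, and KO estrus had the lowest group mean for 29 of the 38 genes.

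The comparison with most called members was estrus against diestrus within KO. Of the 38 members, 12 were lower at estrus and 0 were higher, at an adjusted p below the threshold of 0.05 (limma on log2(normalized count + 1), adjusted over all tested genes). Over all tested genes 16.6% were called, 8.95% as lower and 7.67% as higher. The median log2 difference of the members was -0.54, against -0.01 for all tested genes, and 31 of 38 were below 0, against 50.7% of all tested genes. Every KO estrus library was below both KO diestrus libraries for 27 members (26% of all tested genes) and above both for 2 (25%). Leaving out KO diestrus 1 or KO diestrus 2, which leaves 1 library whose spread is taken to be that of the other groups, brought the members called to 0 in each case, while 0.995% and 0.257% of all tested genes were then called. Without KO estrus 3, 19 members were called, 18 of them lower, and 17.3% of all tested genes.

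Among the chaperones and their helpers, 4 of 10 fell at estrus in KO (8.95% of all tested genes). The median was -0.82, and all 10 differences were below 0. Hspa5 was the most abundant of the group. Its normalized counts were 66730, 50825 and 89400 in WT estrus, 66653 and 90920 in WT diestrus, 31412, 44591 and 93372 in KO estrus, and 107449 and 121568 in KO diestrus. The KO groups did not overlap, but KO estrus 3 lay far above the other two libraries of its group and close to WT estrus 3. With a log2 difference of -1.17 ± 0.41 (SE) and an adjusted p of 0.069 (limma), Hspa5 was not called.

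Hsp90b1 encodes GRP94, the ER form of Hsp90. It had 5699, 6444 and 8232 normalized counts in KO estrus, 13944 and 13953 in KO diestrus, 8859, 6677 and 9425 in WT estrus, and 7613 and 12707 in WT diestrus. Both KO diestrus libraries were above all others, and the fall at estrus in KO was -1.06 ± 0.24 log2 (limma adjusted p = 0.016). Exons of Hsp90b1 share bases with other annotated genes, among them the opposite-strand pseudogene 1810014B01Rik at a mean of 3135 normalized counts, and the settings of the authors' counting are not given in the sources used here.

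Hyou1 encodes an Hsp110-type exchange factor of BiP. Its values were 854, 795 and 913 in WT estrus, 1019 and 1572 in WT diestrus, 533, 661 and 508 in KO estrus, and 1311 and 1186 in KO diestrus. At estrus both genotypes were thus below their own diestrus libraries without overlap, and the call was made in KO (-1.14 ± 0.19, limma adjusted p = 0.0064) and not in WT (-0.57 ± 0.19, adjusted p = 1). The interaction, which tests whether the stage difference itself depends on genotype, gave -0.58 ± 0.27 with an adjusted p of 0.36.

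Hspa13, an Hsp70-type ATPase of the ER and microsomes, had 488, 651 and 700 normalized counts in KO estrus, below all 7 other libraries, which ran from 735 to 1416. Those were 735, 1028 and 1074 in WT estrus, 907 and 1269 in WT diestrus, and 1180 and 1416 in KO diestrus. Hspa13 fell at estrus in KO by 1.09 on the log2 scale (limma adjusted p = 0.011). Dnajb9 encodes ERdj4, a J protein that hands IRE1 to BiP, and had 735, 668 and 564 in KO estrus and 1257 and 1323 in KO diestrus. In WT it had 735, 1062 and 1258 at estrus and 1093 and 1292 at diestrus, so that its KO estrus libraries met the lowest WT library. Its fall at estrus in KO was -0.98 ± 0.21 (limma adjusted p = 0.013). Differences for the remaining members of the group, Dnajb11, Dnajc3, Sdf2l1, Creld2 and Manf, ran from -0.66 for Creld2 to -0.31 for Sdf2l1, with adjusted p from 0.071 to 0.47 (limma).

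**Figure D2:**
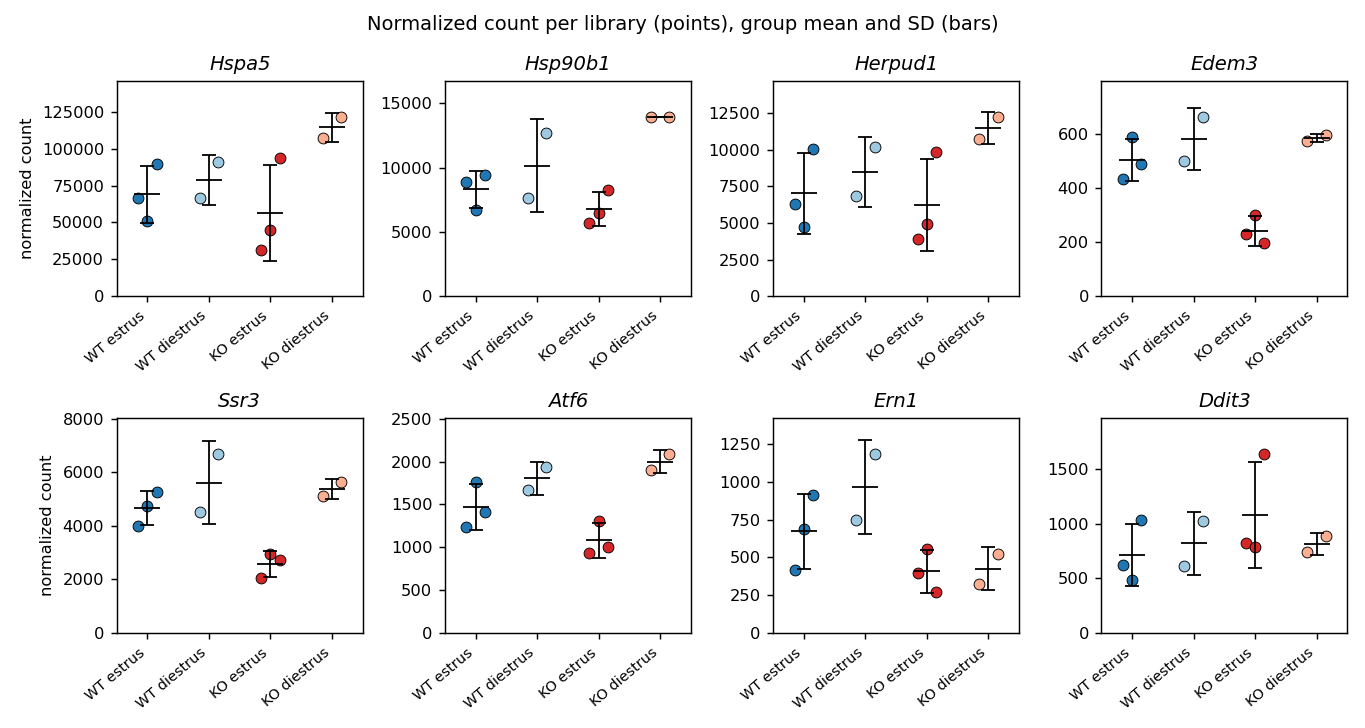
Normalized counts (linear axes from 0) of 8 members are shown by group. Each point is a library, the long bar the group mean and the whiskers the SD over 3 estrus or 2 diestrus libraries. Edem3 and Ssr3 are lower in all 3 KO estrus libraries than in the other 7, whereas for Hspa5, Herpud1 and Ddit3 the third KO estrus library stands far above the other two.

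Of the lectin chaperones, which hold glycoproteins by their sugar trees, 2 of 3 fell at estrus in KO (8.95% of all tested genes). Calr, for calreticulin, had 5174, 6046 and 6474 normalized counts in KO estrus and 11136 and 9058 in KO diestrus, against 7703, 7264 and 8231 in WT estrus and 7116 and 11355 in WT diestrus. The 3 KO estrus libraries were the lowest of the 10, and the fall from diestrus was -0.77 ± 0.20 (limma adjusted p = 0.027). Canx, for its membrane-bound relative calnexin, showed the same order, with 3620, 4484 and 3898 in KO estrus, 7237 and 6562 in KO diestrus, 5441, 5604 and 6104 in WT estrus, and 5359 and 7017 in WT diestrus. Its fall at estrus in KO was -0.79 ± 0.16 (limma adjusted p = 0.012). Uggt1, the glucosyltransferase that sends unfolded glycoproteins back to both, had a difference of -0.48 ± 0.26 (adjusted p = 0.21) and KO groups that overlapped.

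None of the 5 disulfide isomerases was called in any of the 6 comparisons. Between the stages in KO, 3 of 5 were below 0, all 3 without overlap (26% of all tested genes). The median of all 5 was -0.50. P4hb, the most abundant, had 14814, 13371 and 14185 normalized counts in WT estrus, 12164 and 18109 in WT diestrus, 12540, 14577 and 12533 in KO estrus, and 13463 and 11766 in KO diestrus. Its groups overlapped throughout, and its stage difference in KO was 0.07 ± 0.19 (limma adjusted p = 0.84). Pdia4 had 1770, 2199 and 3232 in KO estrus, 4120 and 3599 in KO diestrus, 3753, 2609 and 2793 in WT estrus, and 2670 and 4514 in WT diestrus. That gave -0.73 ± 0.27 between the stages in KO (limma adjusted p = 0.086). Pdia3, which works with calreticulin and calnexin, and Pdia6 had -0.54 and -0.50, and the weakly expressed Pdia5 had 0.43.

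In ER-associated degradation, 4 of 9 members fell at estrus in KO (8.95% of all tested genes). For 8 of 9 the KO groups did not overlap and estrus was lower (26% of all tested genes). Edem3 (ENSMUSG00000043019, chr1:151755371-151822051 on GRCm38), a mannose-trimming protein that marks glycoproteins for degradation, had the largest fall of all 38. It stood at 435, 590 and 487 normalized counts in WT estrus, 501 and 663 in WT diestrus, 228, 301 and 195 in KO estrus, and 574 and 595 in KO diestrus. The KO estrus libraries were below all 7 others, and the difference from KO diestrus was -1.30 ± 0.21 (limma adjusted p = 0.0058). Edem1, of the same family, had 889, 1085 and 1022 in KO estrus, 1397 and 1506 in KO diestrus, 1212, 1440 and 1554 in WT estrus, and 1540 and 2069 in WT diestrus, and was just inside the threshold at -0.54 ± 0.17 (adjusted p = 0.049). The third family member, Edem2, had 0.25 ± 0.21 (adjusted p = 0.43) with overlapping groups.

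Sel1l holds the ubiquitin ligase Syvn1 (Hrd1) in the membrane complex that pulls proteins out of the ER, and Derl1 is one of its channel proteins. Sel1l had 1194, 1602 and 2052 normalized counts in KO estrus, 2287 and 2724 in KO diestrus, 1942, 2186 and 2131 in WT estrus, and 1923 and 2291 in WT diestrus. It fell at estrus in KO by 0.66 on the log2 scale (limma adjusted p = 0.046). Derl1 had 2115, 2323 and 2310 in KO estrus, 3218 and 3334 in KO diestrus, 2898, 2610 and 2706 in WT estrus, and 2782 and 3359 in WT diestrus. With that narrow spread its fall of -0.54 ± 0.14 was called (limma adjusted p = 0.023), and its KO estrus libraries were the lowest of the 10. Syvn1 and Derl2 had -0.55 and -0.53 and missed the threshold (adjusted p = 0.057 and 0.064). Derl3, at 3 to 28 normalized counts in all libraries, had -0.87 ± 0.69.

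Herpud1 was the most abundant member of the degradation group. It had 6296, 4720 and 10081 normalized counts in WT estrus, 6810 and 10192 in WT diestrus, 3930, 4913 and 9816 in KO estrus, and 10723 and 12249 in KO diestrus. As for Hspa5, the KO groups did not overlap, but KO estrus 3 lay close to the KO diestrus libraries, and the difference of -0.996 ± 0.375 was not called (limma adjusted p = 0.086).

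The translocon genes did not move as 1 block. Of 6, 3 were below 0 and 3 above between the stages in KO, and 1 was called (16.6% of all tested genes). Ssr3 (ENSMUSG00000027828, chr3:65379655-65392623 on GRCm38) encodes the gamma subunit of the translocon-associated protein complex, which helps some signal sequences to open the channel. It had 3997, 4731 and 5255 normalized counts in WT estrus, 4500 and 6693 in WT diestrus, 2038, 2940 and 2729 in KO estrus, and 5099 and 5623 in KO diestrus. All KO estrus libraries were below all others, and Ssr3 fell by -1.08 ± 0.21 against KO diestrus (limma adjusted p = 0.0098). Its partner subunits had -0.48 ± 0.16 (Ssr1, adjusted p = 0.058) and 0.10 ± 0.22 (Ssr2, adjusted p = 0.80).

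Sec61a1 encodes the pore of the channel. It had 4919, 5697 and 5499 normalized counts in KO estrus, 7078 and 7097 in KO diestrus, 7335, 6234 and 7188 in WT estrus, and 5844 and 8536 in WT diestrus, a stage difference in KO of -0.40 ± 0.18 (limma adjusted p = 0.14). The small subunits Sec61b and Sec61g, named here after their values were seen, were the 2 members above KO diestrus in every KO estrus library. Sec61b had 2013, 1634 and 1426 in KO estrus and 1282 and 1129 in KO diestrus, and Sec61g 1871, 1305 and 964 against 903 and 819. Neither was called (0.48 ± 0.20, adjusted p = 0.12, and 0.63 ± 0.25, adjusted p = 0.11).

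Among the sensors and transcription factors, 1 of 5 was called between the stages in KO (16.6% of all tested genes). Atf6, the sensor that is cut in the Golgi to release a transcription factor for the ER stress element, had 1232, 1763 and 1408 normalized counts in WT estrus, 1668 and 1937 in WT diestrus, 928, 1311 and 1002 in KO estrus, and 1903 and 2093 in KO diestrus. It fell at estrus in KO by 0.90 on the log2 scale (limma adjusted p = 0.012), and one KO estrus library lay within the range of WT estrus. Its relative Atf6b had 741, 605 and 512 in WT estrus, 762 and 583 in WT diestrus, 463, 587 and 523 in KO estrus, and 613 and 592 in KO diestrus, a stage difference in KO of -0.21 ± 0.19 (adjusted p = 0.48).

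Xbp1 was the steadiest of all 38, with a highest library 1.32 times the lowest. Its normalized counts were 9982, 8441 and 10594 in WT estrus, 10151 and 9925 in WT diestrus, 8123, 8055 and 9348 in KO estrus, and 8878 and 9780 in KO diestrus. Gene totals do not separate spliced from unspliced Xbp1 mRNA, so its splicing was not measured. The stage difference in KO was -0.13 ± 0.16 (limma adjusted p = 0.60).

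Ern1, which encodes IRE1 alpha, had 418, 690 and 914 normalized counts in WT estrus, 749 and 1188 in WT diestrus, 399, 554 and 272 in KO estrus, and 323 and 525 in KO diestrus. Both KO diestrus libraries were below both WT diestrus libraries, while the estrus groups overlapped. The genotype differences were -0.71 ± 0.33 at estrus (limma adjusted p = 0.19), -1.19 ± 0.40 at diestrus (0.60) and -0.95 ± 0.26 averaged over both stages (0.14), none of them called. Between the stages in KO the difference was -0.07 ± 0.36.

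Ddit3 encodes CHOP, a transcription factor of prolonged ER stress downstream of PERK. It had 620, 480 and 1030 normalized counts in WT estrus, 615 and 1025 in WT diestrus, 818, 785 and 1640 in KO estrus, and 738 and 882 in KO diestrus. The groups overlapped in every comparison, with 0.33 ± 0.36 between the stages in KO (limma adjusted p = 0.56) and 0.59 ± 0.32 between the genotypes at estrus (adjusted p = 0.28). Exons of Ddit3 share 105 bases with a second entry of that name on the same strand, which has no counts here. They also share 68 bases with the opposite-strand gene Mars.

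Between the genotypes at estrus, 2 of the 38 members were lower in KO and 0 were higher (limma), where 4.2% of all tested genes were called, 2.94% as lower and 1.26% as higher. The 2 were Edem3, at -1.07 ± 0.19 (adjusted p = 0.021), and Ssr3, at -0.87 ± 0.19 (adjusted p = 0.035), which had also fallen against KO diestrus. Both comparisons use the same 3 KO estrus libraries. The members' median was -0.26 against -0.01 for all tested genes, 31 of 38 were below 0 (51% of all tested genes), and 12 had an unadjusted p under 0.05, or 31.6% against 25.8% of all tested genes. For 10 members every KO estrus library was below every WT estrus library (13.1% of all tested genes), and for 0 above (12.9%). After Edem3 and Ssr3, the differences of largest size were -0.71 for Ern1, -0.62 for Hspa13 (adjusted p = 0.080), -0.61 for Dnajb9 (0.076), -0.60 for Hyou1 (0.063) and 0.59 for Ddit3, none called. By role, all 9 degradation members and all 3 lectin chaperones were below 0, with medians of -0.28 and -0.44, and the translocon genes were split 3 to 3. No member was called without WT estrus 2, without WT estrus 3 or without KO estrus 1, when 0.441%, 0.441% and 0.481% of all tested genes were called. Without WT estrus 1, 4 members were called (5.26% of all tested genes), and without KO diestrus 1 or KO diestrus 2 Edem3 alone was (0.692% and 0.685%).

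In diestrus, no member was called between the genotypes (limma; 0.0395% of all tested genes were called, 0.0264% as higher and 0.0132% as lower). One member, Ern1, had an unadjusted p under 0.05 (2.63% of the 38, against 5.92% of all tested genes). The median was 0.05 and 24 of 38 were above 0. Hspa5, Hsp90b1 and Herpud1 were the 3 members for which both KO diestrus libraries exceeded both WT diestrus libraries (21.4% of all tested genes), with differences of 0.55 ± 0.45, 0.50 ± 0.26 and 0.46 ± 0.41. For Ern1, Xbp1, Pdia5 and Edem1 both KO libraries were below both WT libraries (21.6%). The median rested on the pair of WT diestrus libraries, since it was -0.18 without WT diestrus 1 and 0.29 without WT diestrus 2. Averaged over both stages, 0 members were called (0.665% of all tested genes), 6 had an unadjusted p under 0.05 (15.8%, against 14.7% of all tested genes), and the median was -0.10.

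Within WT, 0 members were called between the stages (limma; 0% of all tested genes), and 1, Hyou1, had an unadjusted p under 0.05 (2.63% of the 38, against 3.87% of all tested genes). The median was -0.20 and 34 of 38 members were below 0, against 50.7% of all tested genes. Estrus was below diestrus without overlap for 3 members, Hyou1, Uggt1 and Ssr1 (8.99% of all tested genes), and above it for 0 (8.72%). These values moved with WT diestrus 2, the highest of the 10 libraries for 20 of the 38 members. Without it the median was 0.01, and without WT diestrus 1 it was -0.41.

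Whether the stage difference depended on genotype was tested by the interaction, which called 0 members and 0% of all tested genes (limma). The smallest adjusted p was 0.26, for Edem3 (-1.09 ± 0.30), and 8 members had an unadjusted p under 0.05, or 21.1% against 14.2% of all tested genes. The median was -0.33 and 30 of 38 were below 0. It was -0.13 without WT diestrus 1 and -0.55 without WT diestrus 2. The calls within KO and their absence within WT were thus not shown to differ.

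**Figure D3:**
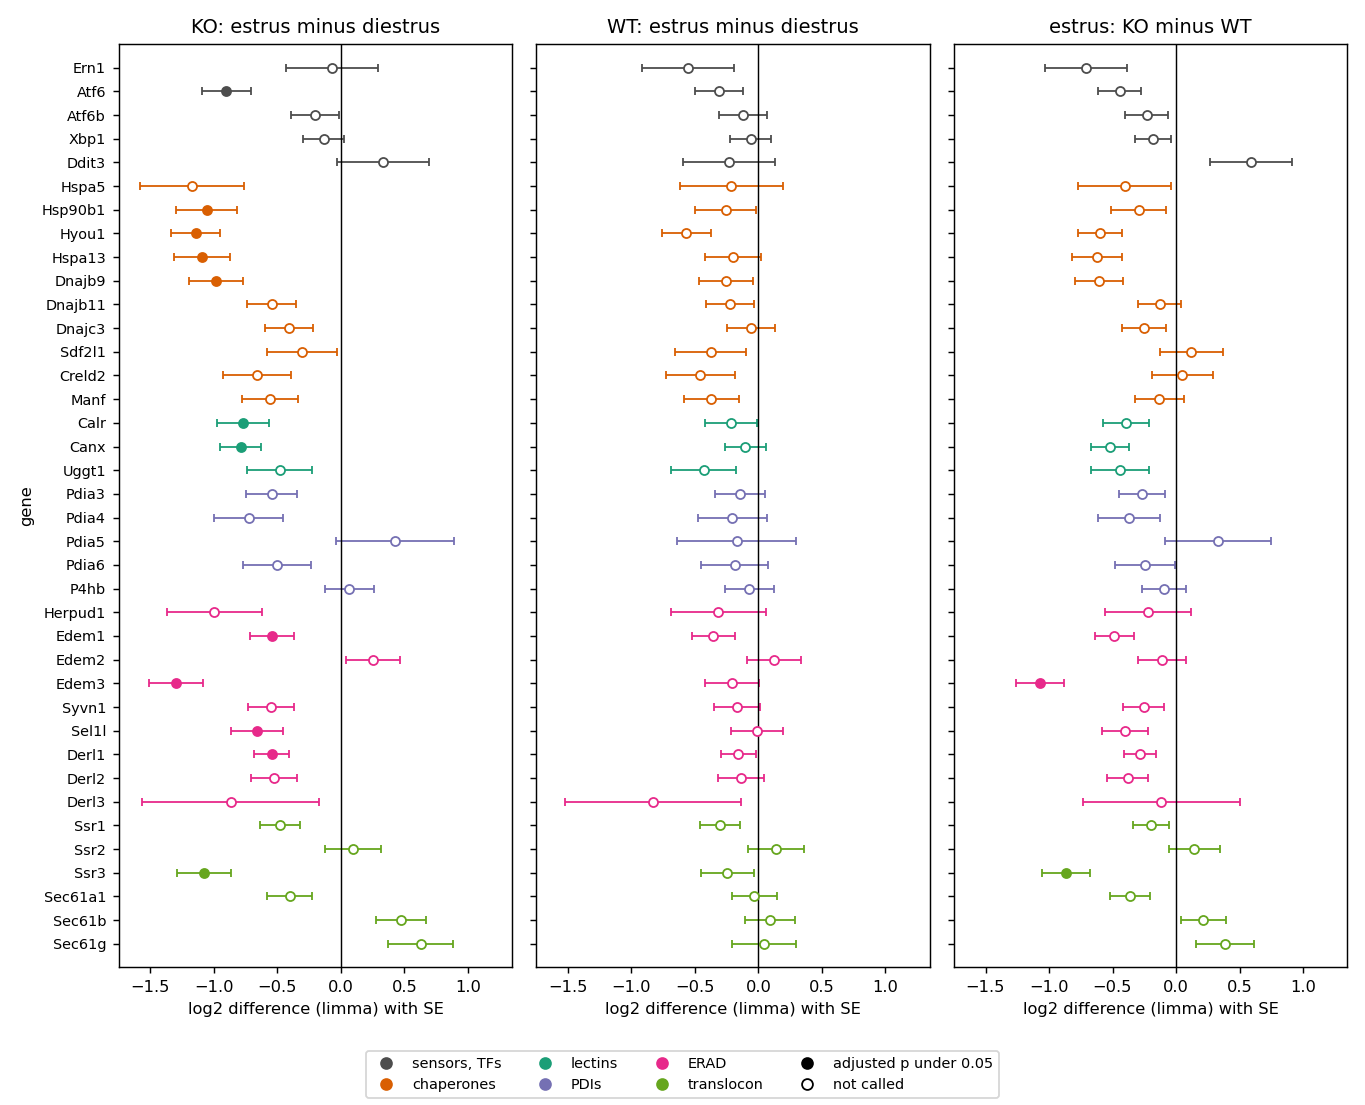
Points are limma log2 differences of the 38 genes and bars their SE, coloured by role, for estrus minus diestrus in KO (left) and in WT (middle) and for KO minus WT at estrus (right). Filled points have an adjusted p under 0.05, which holds for 12 genes on the left, 0 in the middle and 2 on the right, all to the left of 0.

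Libraries within the KO estrus group differed by gene. KO estrus 3 was the highest of the 3 for 20 members and the lowest for 9. Relative to the mean of the other two, it held 2.46 times the normalized counts of Hspa5, 2.22 times those of Herpud1, 2.05 times those of Ddit3, 1.63 times those of Pdia4 and 1.52 times those of Creld2. In the same library Pdia5 stood at 0.38, Ern1 at 0.57, and Sec61g and Uggt1 at 0.61 of that mean. KO estrus 1 was the lowest of all 10 libraries for 20 members.

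The 9 members with the ER stress element printed above were all below 0 and all without overlap between the stages in KO, with 3 called (Calr, Canx and Hsp90b1) and a median of -0.77. Of the 22 members with a promoter and no match to this element, 16 were below 0, 12 were lower without overlap, 5 were called and the median was -0.48. The 22 include Dnajb11 and Herpud1, which hold the related element. The shares called were 33.3% with and 22.7% without the element, beside 16.6% of all tested genes, of which 26% were lower without overlap. The remaining 4 called members, Atf6, Derl1, Hspa13 and Hyou1, are among the 7 without a promoter in the table. The difference between members with and without the element was not tested. At diestrus 8 of the 9 with the element were above 0 between KO and WT, with a median of 0.16 and 0 called.

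Transcript length moved with the differences. Across the 38 members, Spearman's rho between the longest annotated transcript and the log2 difference was -0.75 for KO against WT at estrus and -0.36 for estrus against diestrus in KO. These are descriptions across genes that share the same libraries, and over 15146 tested genes with a known length rho was -0.31 and -0.35. With each library's trend on length and GC content removed, the members' medians were -0.24 and -0.50. At estrus Edem3 alone was then called between the genotypes, with 1.41% of all tested genes. Between the stages in KO 11 members were called beside 10.0% of all tested genes, without Canx, Edem1 and Sel1l and with Creld2 and Dnajb11.

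**Figure D4:**
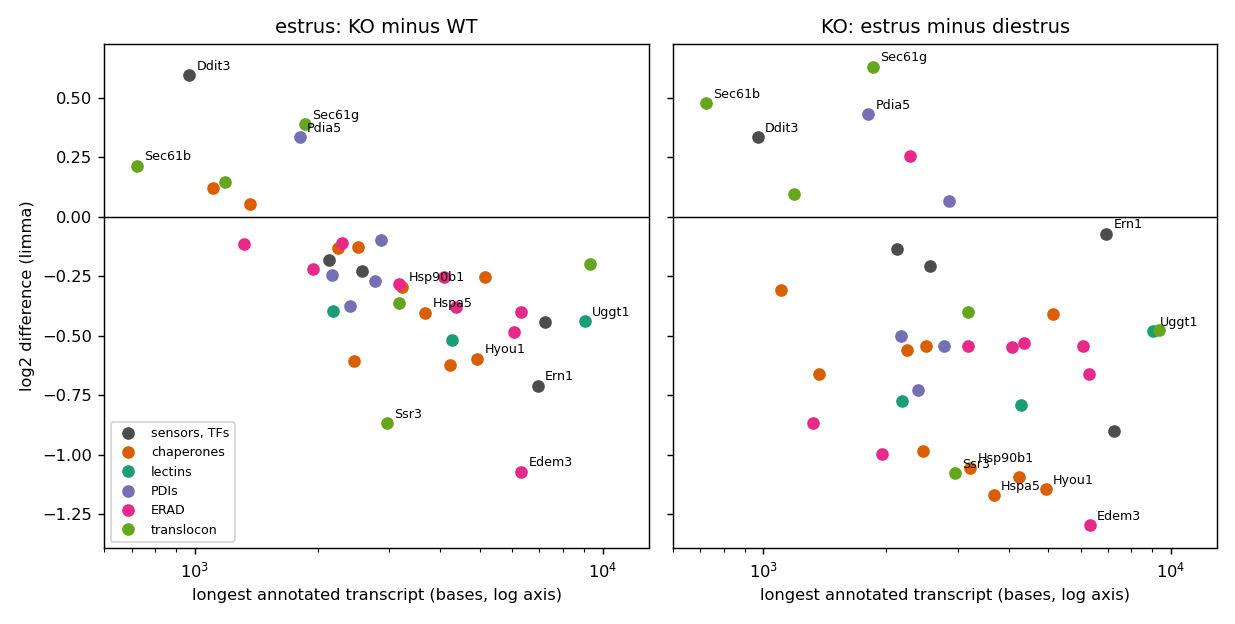
Each point is 1 of the 38 genes, coloured by role, with the longest annotated transcript in bases on a log axis and the limma log2 difference on the vertical axis, for KO minus WT at estrus (left) and estrus minus diestrus in KO (right). Longer genes lie lower, with a Spearman's rho of -0.75 on the left and -0.36 on the right, and Sec61b, the shortest, lies above 0 in both.

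A list of 80 further ER genes, all of them tested, was described in the same way. Between the genotypes at estrus 6 were lower in KO and 1 was higher (limma), 8.75% of the 80 against 4.2% of all tested genes, with a median of -0.14. Eif2ak3, which encodes PERK, the sensor not among the 38, had 715, 776 and 889 normalized counts in WT estrus, 854 and 1151 in WT diestrus, 269, 443 and 307 in KO estrus, and 857 and 705 in KO diestrus. It was lower in all KO estrus libraries than in any other, and its differences were -1.25 ± 0.20 against WT (adjusted p = 0.017) and -1.22 ± 0.22 against KO diestrus (adjusted p = 0.0076). It was also the 1 gene of the 80 called for the average over both stages (-0.80 ± 0.16, adjusted p = 0.046), where 0.665% of all tested genes were called. At diestrus alone its genotype difference was -0.35, was not called, and the groups overlapped. The others lower at estrus in KO than in WT were Srp54a (-0.85) of the signal recognition particle, whose near-identical gene copies make its count uncertain, Spcs3 (-0.77) of signal peptidase, the degradation factors Faf2 (-0.68) and Nploc4 (-0.65), and the thioredoxin-related Tmx1 (-0.68). The peroxiredoxin Prdx4 rose by 0.71 (adjusted p = 0.035).

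Between the stages in KO, 13 of the 80 fell at estrus and 6 rose, with a median of -0.13. That is 23.8% of the 80 against 16.6% of all tested genes, and the 6 that rose are close to the 7.67% of all tested genes called higher. Of the 6 genes of the PERK arm 3 fell (8.95% of all tested genes), namely Trib3 (-1.50, limma adjusted p = 0.0078), Eif2ak3 and Ppp1r15b (-0.95, adjusted p = 0.0081). The median of the 6 was -1.09. Chac1, Atf4 and Ppp1r15a were not called. Chac1 had 195, 179 and 301 normalized counts in KO estrus and 432 and 720 in KO diestrus. For Atf4 (6591, 5626 and 4411 against 6140 and 6322) and Ppp1r15a (9998, 10847 and 12616 against 10631 and 10827) the KO groups overlapped. The largest differences among the rest were those of the sulfhydryl oxidase Qsox1 (-1.18), of Nploc4 (-0.95) and of Prdx4, which rose by 0.88 (limma adjusted p = 0.0098). Qsox1 had 6114, 6137 and 12147 normalized counts in KO estrus, so KO estrus 3 stood far above the other libraries of its group. It had 15833 and 19217 in KO diestrus and 10585 and 10443 in WT diestrus. Within WT and in the interaction 0 of the 80 were called, and 1 (1.25%) and 14 (17.5%) had an unadjusted p under 0.05, against 3.87% and 14.2% of all tested genes. At diestrus 0 were called between the genotypes and 4 (5%) had an unadjusted p under 0.05, against 5.92%.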

How the data were processed

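The deposited table holds a score per gene and library, a normalized read count rounded by the authors to a whole number. Per the submitters' processing notes, STAR, HTSeq, DESeq2 and mm10 were used, and versions, counting settings and annotation are not given in the sources used here. The values are not raw counts, so no count model was fitted. GENCODE M21 (GRCm38) supplied symbols, positions, transcript lengths and GC content, with 26249 of 26312 genes given a symbol. Values were analysed as log2(value + 1), which understates the change of low genes. The 15180 genes with a mean of at least 10 were fitted with limma 3.58.1 in R 4.3.3, with 1 mean per group over all 10 libraries and the spread modelled on the mean level. The 6 contrasts were two-sided and adjusted by the Benjamini-Hochberg method over every gene tested, with a threshold of 0.05, and the diestrus groups of 2 libraries borrow their spread from the rest. The fit was tested on simulated data.

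The members, roles and lists were chosen with earlier results of these data known. Values per library are given for called members, for the 5 sensors and, per role, for the member of highest mean and the one with the largest genotype difference at estrus. Up to 6 called further ER genes per contrast are named. Alternatives were pseudocounts of 0.5 and 5, omission of the minimum or one of 50, equal totals, quantile normalization, no trend in the spread, library weights, removal of length and GC trends, a replicate block, the compared groups alone, and each of the 10 libraries left out. Promoters are from RefSeq (GRCm38.p6), and protein sequences were not analysed here. Figures were drawn with matplotlib 3.10.9. Exons of 11 members share bases with another annotated gene, Hsp90b1 and Dnajb9 among those called, and Calr has a pseudogene copy, so their counts are less certain.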

Additional observations from a re-analysis of the deposited data

How the results depend on the processing

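Of the 12 members called lower at estrus in KO, 9 remained with no filter and 9 with no trend in the spread, and 10 with equal totals and 10 with the compared groups alone. Of 15180 tested genes 2524 were called in the main fit, 1685 with no trend, 2389 with equal totals and 1805 with compared groups alone. With no filter 1626 of 26312 were called, and with the replicate block 2608 of 15180. The counts that follow hold members called in either direction. Sec61g was called higher with library weights and without KO estrus 3. The count was 23 with library weights, which also called 25.6% of all tested genes, 16 with the replicate block, and between 0 and 19 when 1 library was left out. The 2 members called between the genotypes at estrus became 1 with no filter, 1 with library weights, 1 with length and GC trends removed, 0 with no trend in the spread, 0 with the compared groups alone and 4 with the replicate block, and between 0 and 4 with 1 library left out. In this comparison 637 of 15180 tested genes were called in the main fit, 229 with library weights and 996 with the replicate block. With no trend in the spread 44 were called, and 23 with the compared groups alone. With no filter 89 of 26312 were called, and with length and GC trends removed 214 of 15146. The cause was not tested. The other 4 contrasts called 0 members under all these alternatives. Whether replicate numbers pair the libraries was not settled. Deviations of same-numbered libraries had correlations from -0.13 to 0.19. With a group of 2 libraries these values are mirror images, so they cannot decide it. Between WT estrus and KO estrus they were 0.187, 0.083 and 0.031, against -0.147 to 0.079 for unlike numbers. The block changed no member's call in the other 4 contrasts. The median of the members in KO between the stages stayed between -0.66 and -0.46, and that between the genotypes at estrus between -0.37 and -0.17. No called value changed its direction, whereas the medians at diestrus, within WT and averaged over both stages changed sign with 1 library left out. Rescaling moved the median of all genes by less than 0.1. Precision is limited by 2 libraries per diestrus group, and read depth before normalization was not used.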

Other observations

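Some ER genes had differences above 0 in KO estrus, and the 3 named here were picked after their values were seen. Of 11 other folding factors, which include prolyl isomerases and collagen or receptor chaperones, 10 were above 0 between the genotypes at estrus, with a median of 0.24 and 0 called (limma). Between the stages in KO, differences were above 0 for 9 of the 11, with a median of 0.27, and 1 rose, Cnpy2, by 0.64 on the log2 scale (adjusted p = 0.026). Cnpy2 had 1565, 1432 and 1723 normalized counts in KO estrus and 1048 and 967 in KO diestrus, without overlap. Of the 11 subunits of the oligosaccharyltransferase, which attaches sugar trees to proteins as they enter the ER, 5 were above and 6 below 0 between the stages in KO. One of them, the small subunit Ost4, rose by 0.63 (adjusted p = 0.038), with 3076, 2296 and 1925 normalized counts in KO estrus and 1573 and 1515 in KO diestrus. Ssr4, the delta subunit of the complex that holds Ssr3, rose by 0.72 (adjusted p = 0.038), with 2392, 1727 and 1586 against 1159 and 1108, so that 2 subunits of that complex were called in opposite directions. Of all tested genes 7.67% rose in this comparison. The longest transcripts of Cnpy2, Ost4 and Ssr4 have 1383, 1144 and 2568 bases, against a median of 2927 over all tested genes. How much of their rise goes with transcript length is not given here.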
